A study of Rattus norvegicus with 9 samples.

Results

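The genes described here are 7 interferon response genes of rat blood, Irf7, Irf1, Rsad2, Isg15, Isg20, Mx1 and Ifitm3. They were chosen by symbol, and each had 1 row in a table of 12854 genes. The question was whether blood starts an interferon response within 15 min of contact with a gel made of DNA. RNA from whole blood of Sprague-Dawley rats, 6 weeks old in the study, was sequenced in 9 libraries, with 3 in each of 3 groups. In the DNAgel group fresh blood was kept for 15 min with DNAgel, a hydrogel of salmon sperm DNA crosslinked with poly(ethylene glycol) diacrylate. In the GS group it was kept for 15 min with GS, a commercial gelatin sponge. The Control group was untreated rat blood, for which no time is given, so against the Control the material and the time cannot be told apart. Whether different rats gave the 3 libraries of a group is not stated in the sources used here, so each p-value reflects only how far these libraries scatter, which may be technical.

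Interferons are secreted proteins that cells release when sensors find nucleic acid of a virus, or DNA, in the wrong place. Their receptors signal through JAK kinases and STAT factors, and the STAT complexes then bind short DNA elements at the starts of many genes. The products of these genes block viral replication, cut viral RNA or raise the sensitivity of the cell to further signals, and some of them are also made at rest.

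The starts of the members are shown because several carry the letters through which interferon signals are known to act. RefSeq windows of the GRCr8 assembly, with 250 bases before and 50 bases after the annotated start, matched 6 of the 7 members by symbol, all but Isg15. The interferon-stimulated response element (ISRE) was searched as 2 blocks of GAAA with NN between them, and the interferon-gamma activated site (GAS) as TTC and GAA with NNN between them, on both strands. The ISRE letters were found in Irf7, Rsad2, Isg20 and Ifitm3, and the GAS letters in Irf1 and Ifitm3. The stretches below read 5′ to 3′ along the gene, with the ISRE letters in capitals, or the GAS letters for Irf1. They lie at chr1:205800048-205800127 on the minus strand (Irf7), chr10:38417758-38417836 on the plus strand (Irf1), chr6:48788223-48788302 on the minus strand (Rsad2), chr1:142239932-142240011 on the plus strand (Isg20) and chr1:205541759-205541837 on the minus strand (Ifitm3).
Irf7: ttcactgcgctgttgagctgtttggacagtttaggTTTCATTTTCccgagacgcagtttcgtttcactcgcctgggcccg
Rsad2: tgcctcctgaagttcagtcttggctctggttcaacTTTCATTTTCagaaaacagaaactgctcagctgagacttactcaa
Isg20: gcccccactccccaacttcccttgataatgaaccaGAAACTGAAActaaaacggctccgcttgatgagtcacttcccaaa
Ifitm3: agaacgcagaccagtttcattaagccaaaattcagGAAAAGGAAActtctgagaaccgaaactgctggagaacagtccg
Irf1: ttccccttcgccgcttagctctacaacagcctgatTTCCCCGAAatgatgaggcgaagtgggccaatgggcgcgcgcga
The match began 69 bases before the start in Irf7, 147 in Rsad2, 92 in Isg20, 44 in Ifitm3 and 142 in Irf1. In Irf7 and Rsad2 the same 10 letters, TTTCATTTTC, were found, which is the ISRE read on the opposite strand. The ISRE letters were present in 3.92% of 33469 windows of this length and in 30 of 49 windows of other interferon-stimulated genes. The GAS letters were present in 8.87% of all windows. The NF-kappaB letters, GGG and TTCC with NNN between them, in 5.37% of all windows, were found in Isg20 and Ifitm3, where the 2 matches overlap each other. The TATA letters TATAAA, in 14.2% of all windows, were found in Rsad2 and in Mx1, where the 2 matches overlap each other. No match overlapped one of another motif. A match of letters is a description of the window and does not show a bound factor.

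The libraries held 51838917 to 68076324 estimated counts, and the 9 hemoglobin genes took 95.0% to 96.4% of them. All other genes shared 2344910 to 3216776 counts per library, and 6029 to 8417 genes per library had a count above 0. All 16 erythroid and all 16 platelet markers had counts in every group. The commonest count above 0 was 4 in each library, so 1 count is not 1 read pair. A group at 0 was therefore taken to allow up to 12 counts over its 3 libraries, which covers counting error only. Levels within a gene are given as library-scaled counts (CPM, with TMM scaling), and levels between genes as FPKM, which also divides by transcript length. A gene was tested where 3 or more libraries exceeded 0.1 FPKM, which left 3561 genes. Of the 7 members, Rsad2, Irf7, Isg20 and Isg15 passed this filter, while Mx1, Irf1 and Ifitm3 did not.

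No member was called as higher or lower between any groups, and 4 members were measured well enough to bound the difference. Rsad2 and Irf7 were among the more abundant transcripts of blood outside the hemoglobin genes. Isg20 and Isg15 followed, and Mx1, Irf1 and Ifitm3 were close to the limit of detection. By mean FPKM over the 9 libraries the order was Rsad2 (21.7), Irf7 (14.5), Isg20 (3.11), Isg15 (1.39), Mx1 (0.0396), Irf1 (0.0276) and Ifitm3 (0.0131). The corresponding places among 12854 genes were 165, 213, 513, 798, 4709, 5517 and 7367. The first 3 members kept this order in each library, since the FPKM of Rsad2 was 1.18 to 2.05 times that of Irf7, and that of Irf7 was 3.45 to 6.01 times that of Isg20. Isg20 had 2.00 to 4.13 FPKM and Isg15 had 0.571 to 1.79 FPKM, so these ranges did not overlap either. The order of Mx1, Irf1 and Ifitm3 rests on a few counts and is not told apart by these data.

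**Figure D1:**
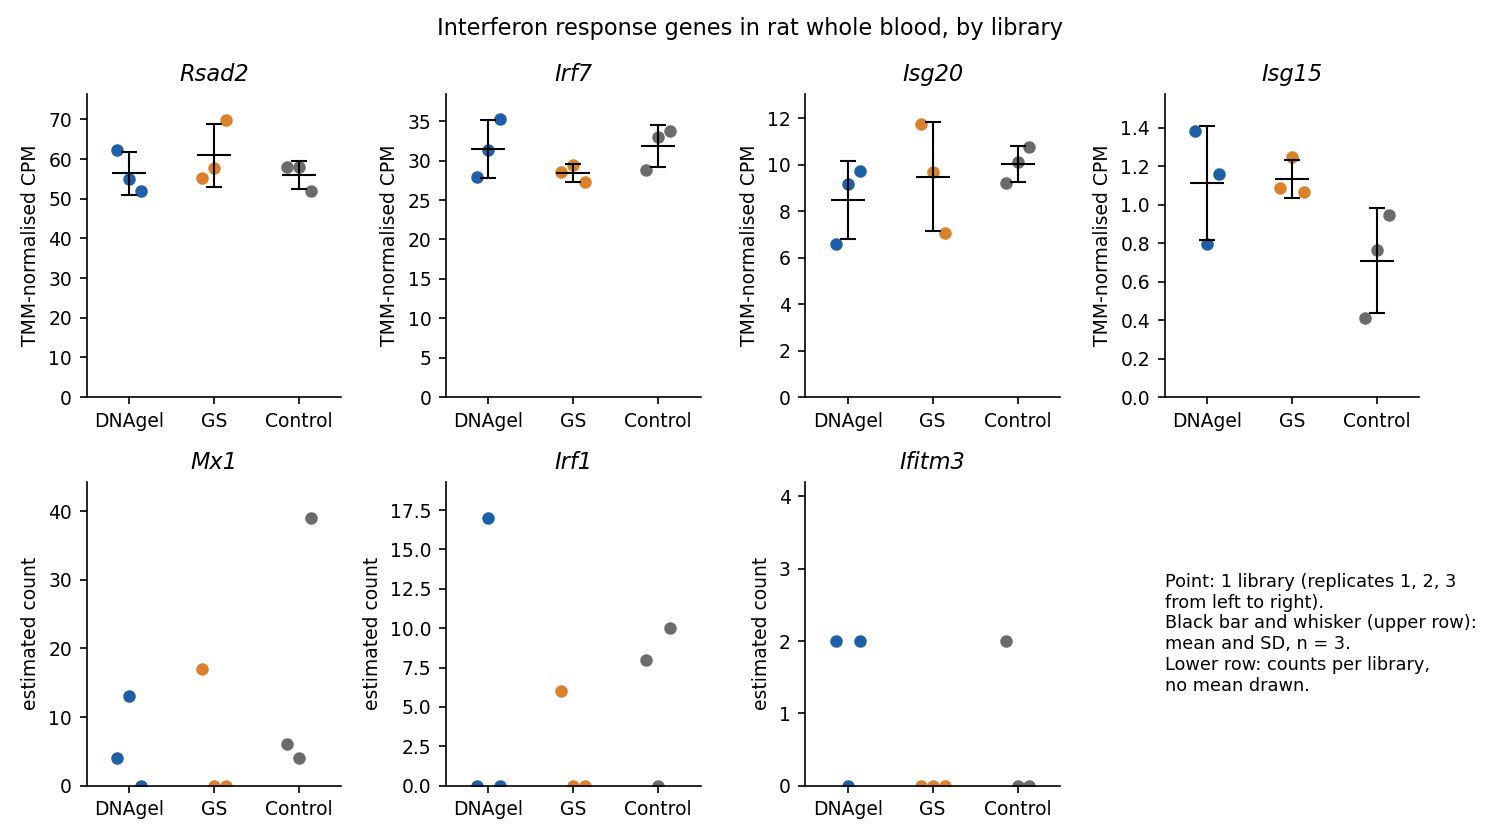
Levels of the 7 members in each library, as TMM-normalised CPM (upper row, linear axes from 0, with mean and SD of 3 libraries) and as estimated counts (lower row). Points are libraries of the DNAgel, GS and Control groups, and in the upper row the groups overlap except for Isg15, where all GS libraries (1.07 to 1.25 CPM) lie above all Control libraries (0.412 to 0.948 CPM).

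Irf7 and Irf1 are transcription factors of the interferon regulatory factor family. Irf7 drives the type I interferon genes once it is phosphorylated, and its own gene is a target of interferon. Irf7 (ENSRNOG00000017414) lies on the minus strand of chromosome 1 at 196367361 to 196370832 in the coordinates of the table, for which no build is named. It had 27.9, 31.3 and 35.3 CPM in the DNAgel libraries, 28.5, 29.5 and 27.3 CPM in the GS libraries and 28.8, 33.0 and 33.7 CPM in the Control libraries. The 3 groups overlapped, with the GS libraries within a narrow band at the lower end. The means were 31.5 ± 3.68 CPM with DNAgel, 28.4 ± 1.11 with GS and 31.9 ± 2.63 in untreated Control blood (SD, n = 3 each). DNAgel against GS gave a log2 fold change of 0.15 (standard error 0.12, edgeR adjusted p = 0.818), with a 95% interval from 0.921-fold to 1.33-fold. For DNAgel against Control it was −0.02 (edgeR adjusted p = 0.994), with an interval from 0.822-fold to 1.19-fold, and for GS against Control −0.16 (edgeR adjusted p = 0.783). In bulk blood fewer cells of a type and less RNA per cell cannot be told apart, which holds for each level given here.

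Irf1 is induced quickly by interferon-gamma and by inflammatory cytokines, and in cells that respond its transcript is among the first to appear. Irf1 (ENSRNOG00000008144) lies on the plus strand of chromosome 10 at 37916670 to 37924166. It had 0, 17 and 0 counts in the DNAgel libraries, 6, 0 and 0 in the GS libraries and 8, 0 and 10 in the Control libraries. DNAgel replicate 2, the library with the lowest total, held all 17 counts of its group. In the fit with no filter on low values the edgeR adjusted p was 1 in all 3 comparisons. At this depth no difference in Irf1 was detectable.

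Rsad2 encodes viperin, a radical SAM enzyme of the endoplasmic reticulum that makes a chain-terminating nucleotide against viral polymerases. It was the most abundant member. Rsad2 (ENSRNOG00000007539) lies on the minus strand of chromosome 6 at 43047658 to 43059699. It had 62.4, 54.9 and 52.0 CPM in the DNAgel libraries, 55.2, 57.8 and 69.9 CPM in the GS libraries and 58.0, 58.0 and 51.9 CPM in the Control libraries. GS replicate 3 was the highest of the 9 and the groups overlapped. The means were 56.4 ± 5.38 CPM with DNAgel, 61.0 ± 7.89 with GS and 56.0 ± 3.53 in untreated Control blood (SD, n = 3 each). DNAgel against GS gave a log2 fold change of −0.11 (standard error 0.13, edgeR adjusted p = 0.888), with a 95% interval from 0.760-fold to 1.13-fold. For DNAgel against Control the log2 fold change was 0.01 (edgeR adjusted p = 0.994) and the interval ran from 0.828-fold to 1.23-fold, and for GS against Control the log2 fold change was 0.12 (edgeR adjusted p = 0.875).

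Cmpk2, a mitochondrial nucleotide kinase that is the neighbour of Rsad2 and, like it, an interferon target, lies 14096 bases away on the other strand. It had 12.2 ± 0.796 CPM with DNAgel, 13.4 ± 1.74 CPM with GS and 11.9 ± 0.732 CPM in the Control (SD, n = 3 each). GS replicate 3 was again the highest library, with 15.4 CPM. DNAgel against GS gave Cmpk2 a log2 fold change of −0.14 (edgeR adjusted p = 0.839).

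Isg20 encodes a 3′ to 5′ exonuclease that degrades single-stranded RNA. Isg20 (ENSRNOG00000054561) lies on the plus strand of chromosome 1 at 132815123 to 132837027. It had 6.58, 9.15 and 9.74 CPM in the DNAgel libraries, 11.7, 9.67 and 7.05 CPM in the GS libraries and 9.22, 10.1 and 10.8 CPM in the Control libraries. The lowest values were DNAgel replicate 1 and GS replicate 3, and the groups overlapped. The means were 8.49 ± 1.68 CPM with DNAgel, 9.49 ± 2.35 with GS and 10.0 ± 0.773 in untreated Control blood (SD, n = 3 each). The log2 fold change was −0.16 for DNAgel against GS (standard error 0.20, edgeR adjusted p = 0.894), with a 95% interval from 0.669-fold to 1.20-fold. It was −0.24 for DNAgel against Control (edgeR adjusted p = 0.994), with an interval from 0.633-fold to 1.13-fold, and −0.08 for GS against Control (edgeR adjusted p = 0.959). In the table Isg20 overlaps Aen, another exonuclease gene on the same strand with 349 counts over the 9 libraries, so reads of the pair may be divided uncertainly.

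Isg15 encodes a ubiquitin-like protein that is attached to other proteins and is also secreted. It was the only one of the 4 members whose CPM values separated any groups. Isg15 (ENSRNOG00000069527) lies on the minus strand of chromosome 5 at 166784148 to 166785435, within Agrn, which has the same strand and 22 counts over the 9 libraries. It had 1.39, 0.795 and 1.16 CPM in the DNAgel libraries, 1.09, 1.25 and 1.07 CPM in the GS libraries and 0.412, 0.768 and 0.948 CPM in the Control libraries. These are 27 to 87 counts per library. The DNAgel and GS libraries overlapped, as did the DNAgel and Control libraries, while all 3 GS libraries were above all 3 Control libraries. In FPKM the GS and Control groups overlapped, with 1.35 to 1.74 FPKM in GS and 0.571 to 1.56 FPKM in the Control. The means were 1.11 ± 0.298 CPM with DNAgel, 1.13 ± 0.0994 with GS and 0.709 ± 0.273 in untreated Control blood (SD, n = 3 each).

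DNAgel against GS gave Isg15 a log2 fold change of −0.03 (standard error 0.34, edgeR adjusted p = 0.997), and the 95% interval ran from 0.591-fold to 1.63-fold. Against the Control it was 0.65 for DNAgel (standard error 0.35, edgeR adjusted p = 0.994) and 0.67 for GS (standard error 0.35, edgeR adjusted p = 0.613). Neither passed the threshold, and both rest on the same 3 Control libraries. The intervals ran from 0.935-fold to 2.62-fold for DNAgel and from 0.951-fold to 2.67-fold for GS, so they hold both no difference and a doubling. Control replicate 1 was the lowest library, and without it the log2 fold changes were 0.38 for DNAgel and 0.41 for GS. By an exact two-sided permutation test of the CPM values the p was 0.2 for DNAgel and 0.1 for GS, each against Control. With 3 libraries against 3 no p below 0.1 can be reached.

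Mx1 encodes a GTPase that traps viral nucleocapsids, and in many tissues it is nearly silent until interferon arrives. Mx1 (ENSRNOG00000001959) lies on the minus strand of chromosome 11 at 36799660 to 36823507. It had 4, 13 and 0 counts in the DNAgel libraries, 17, 0 and 0 in the GS libraries and 6, 4 and 39 in the Control libraries. Control replicate 3 alone held 39 of the 49 counts of its group, against 17 counts each in the DNAgel and GS groups. In the fit with no filter the edgeR adjusted p was 1 for DNAgel against GS, 0.994 for DNAgel against Control and 0.952 for GS against Control.

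Ifitm3 encodes a small membrane protein that hinders the fusion of virus with endosomes. Ifitm3 (ENSRNOG00000015078) lies on the minus strand of chromosome 1 at 196111043 to 196112203. It had 2, 0 and 2 counts in the DNAgel libraries, 0 in all GS libraries and 2, 0 and 0 in the Control libraries. All 3 groups were below the limit of 12 counts, so no fold is given. Of its family, Ifitm6 had 4 counts over the 9 libraries, while Ifitm1 and Ifitm2 had more. Ifitm1 had 24, 19 and 8 counts in the DNAgel libraries, 11, 15 and 0 in the GS libraries and 4, 6 and 16 in the Control libraries. Ifitm2 had 15, 18 and 12 counts in the DNAgel libraries, 12, 9 and 21 in the GS libraries and 34, 42 and 46 in the Control libraries. The Ifitm2 values of the Control libraries were above those of both other groups. Over all genes tested, 10.2% separated in either direction for DNAgel against Control and 17.2% for GS against Control. In these comparisons Ifitm2 had an unadjusted edgeR p under 0.05, as did 3.79% and 8.85% of all genes. Neither Ifitm1 nor Ifitm2 passed the adjusted threshold in any comparison by edgeR. Since these genes are close copies, the division of reads between them is uncertain.

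Counted together, 0 of the 4 members in the fit passed the edgeR threshold for DNAgel against GS, where 0.814% of the 3561 genes did, all of them higher with DNAgel. At an unadjusted p under 0.05 the count was also 0 of 4, against 9.44% of all genes, and DESeq2 called none of the 4. The CPM of the DNAgel and GS groups did not overlap for 0 of 4 members and for 14.7% of all genes. For DNAgel against Control 0 of 4 members and 0% of all genes were called by edgeR. At an unadjusted p under 0.05 these were 0 of 4 and 3.79%, and DESeq2 called 5 genes, none of them a member. The groups did not overlap for 0 of 4 members and 10.2% of all genes. For GS against Control 0 of 4 members and 0.646% of all genes (23 genes, 22 of them lower) were called, and 0 of 4 members and 8.85% of all genes had an unadjusted p under 0.05. The groups did not overlap for 1 of 4 members, Isg15, and 17.2% of all genes, with GS the higher group in 6.49% of all genes. Same-numbered GS and Control libraries deviated together, and with the replicate number as a block the 23 calls became 9, still with 0 of 4 members. The Control libraries serve both comparisons with them.

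**Figure D2:**
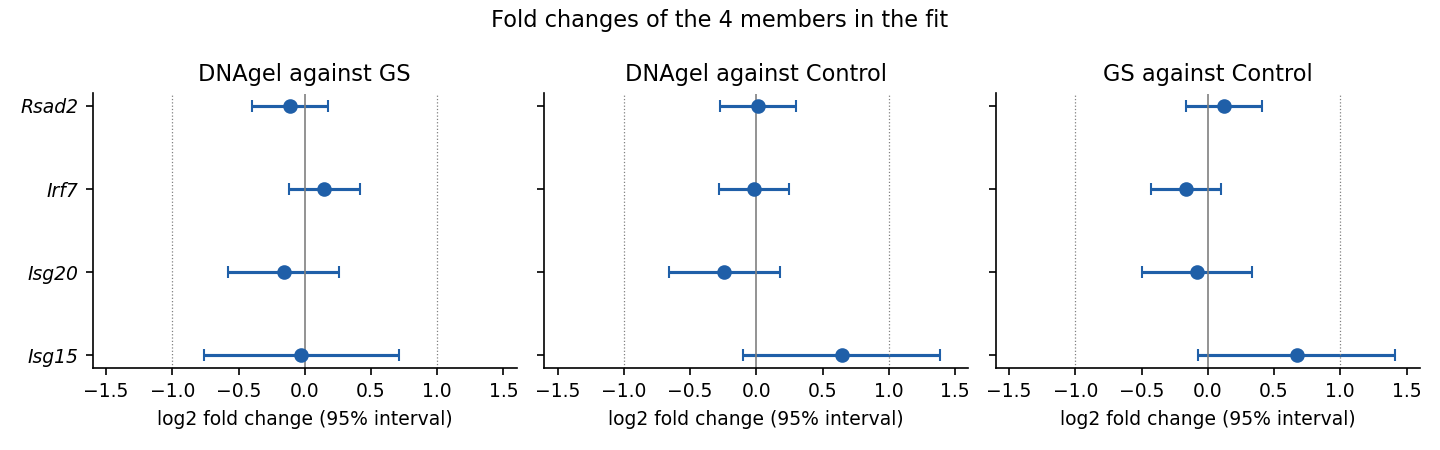
Log2 fold changes with 95% intervals of the 4 members in the fit, from edgeR, for DNAgel against GS (left), DNAgel against Control (middle) and GS against Control (right), with dotted lines at a doubling and its inverse. Each interval holds 0, those of Rsad2, Irf7 and Isg20 lie between the dotted lines, and those of Isg15 against the Control reach beyond a doubling (to 2.62-fold for DNAgel and 2.67-fold for GS).

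The median log2 fold change of the 4 members was −0.07 for DNAgel against GS, beside 0.03 over all 3561 genes tested. A doubling or its inverse lay outside the 95% intervals of Rsad2, Irf7 and Isg20 in each of the 3 comparisons, and outside that of Isg15 for DNAgel against GS.

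The 4 members in the fit did not all vary together across the libraries. Over the 9 libraries the log2 CPM of Rsad2 ran against that of Irf7 (r = −0.765) and against that of Isg20 (r = −0.785), while Irf7 and Isg20 ran together (r = 0.530). Isg15 was little related to Irf7 (r = −0.0448), Rsad2 (r = 0.110) or Isg20 (r = −0.225). These correlations are descriptions over 9 libraries that share scaling and 3 groups. DNAgel replicate 1 and GS replicate 3 were the 2 highest libraries for Rsad2, and they were the lowest 2 for Isg20. GS replicate 3 and DNAgel replicate 1 were also the lowest 2 for Irf7. The pattern thus cut across the materials, with 1 library of each in it.

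Among 826 other genes with a symbol and a mean FPKM of at least 1, those most like each member were found by Pearson correlation of log2 CPM over the 9 libraries. For Irf7 they were Epb42, a protein of the red cell membrane (r = 0.973), Capns1, the small calpain subunit (r = 0.940), and Glul, glutamine synthetase (r = 0.908). For Isg20 they were Rpl12, a ribosomal protein (r = 0.975), Eif3h, a translation initiation factor subunit (r = 0.933), and Arpc2, an actin-branching subunit (r = 0.895). Rpl12 has 2 rows in the table, so its counts are uncertain. For Rsad2 they were Cript (r = 0.906), Cyb561a3 (r = 0.901) and Ap1s2, an adaptor subunit of vesicle coats (r = 0.898). For Isg15 they were Rps18, a ribosomal protein whose row carries the description of another gene and is therefore uncertain (r = 0.917), Sec61b, a subunit of the protein channel of the endoplasmic reticulum (r = 0.893), and Ormdl2 (r = 0.773). Epb42 had 11.0, 14.1 and 15.7 CPM in the DNAgel libraries, 11.9, 12.9 and 11.4 CPM in the GS libraries and 11.7, 15.3 and 15.2 CPM in the Control libraries. As for Irf7, DNAgel replicate 1 and GS replicate 3 were its 2 lowest libraries and DNAgel replicate 3 was its highest.

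The wider set of interferon targets gave no calls either. Of 72 other interferon-stimulated genes listed, 58 were in the table and 25 in the fit, and 0 of the 25 passed the edgeR threshold in any of the 3 comparisons. At an unadjusted p under 0.05 these were 1 of 25 for DNAgel against GS, 1 for DNAgel against Control and 3 for GS against Control, and DESeq2 called 0 of the 25 in each comparison. Over all genes the shares at that unadjusted edgeR p were 9.44%, 3.79% and 8.85%. The median log2 fold change was −0.11 for DNAgel against GS, −0.07 for DNAgel against Control and −0.11 for GS against Control, beside 0.03, −0.01 and −0.04 over all genes tested. Single genes spread from −1.70 to 1.83 for DNAgel against GS. Psme2, a proteasome activator subunit, had 50, 24 and 53 counts in the DNAgel libraries, 12, 22 and 0 in the GS libraries and 58, 51 and 20 in the Control libraries (log2 fold change 1.83 for DNAgel against GS, edgeR adjusted p = 0.461). Plac8 had −0.54 (edgeR adjusted p = 0.562), Ifi27 0.75 (edgeR adjusted p = 0.587) and Psmb8, an immunoproteasome subunit, −1.07 (edgeR adjusted p = 0.649) for the same comparison.

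**Figure D3:**
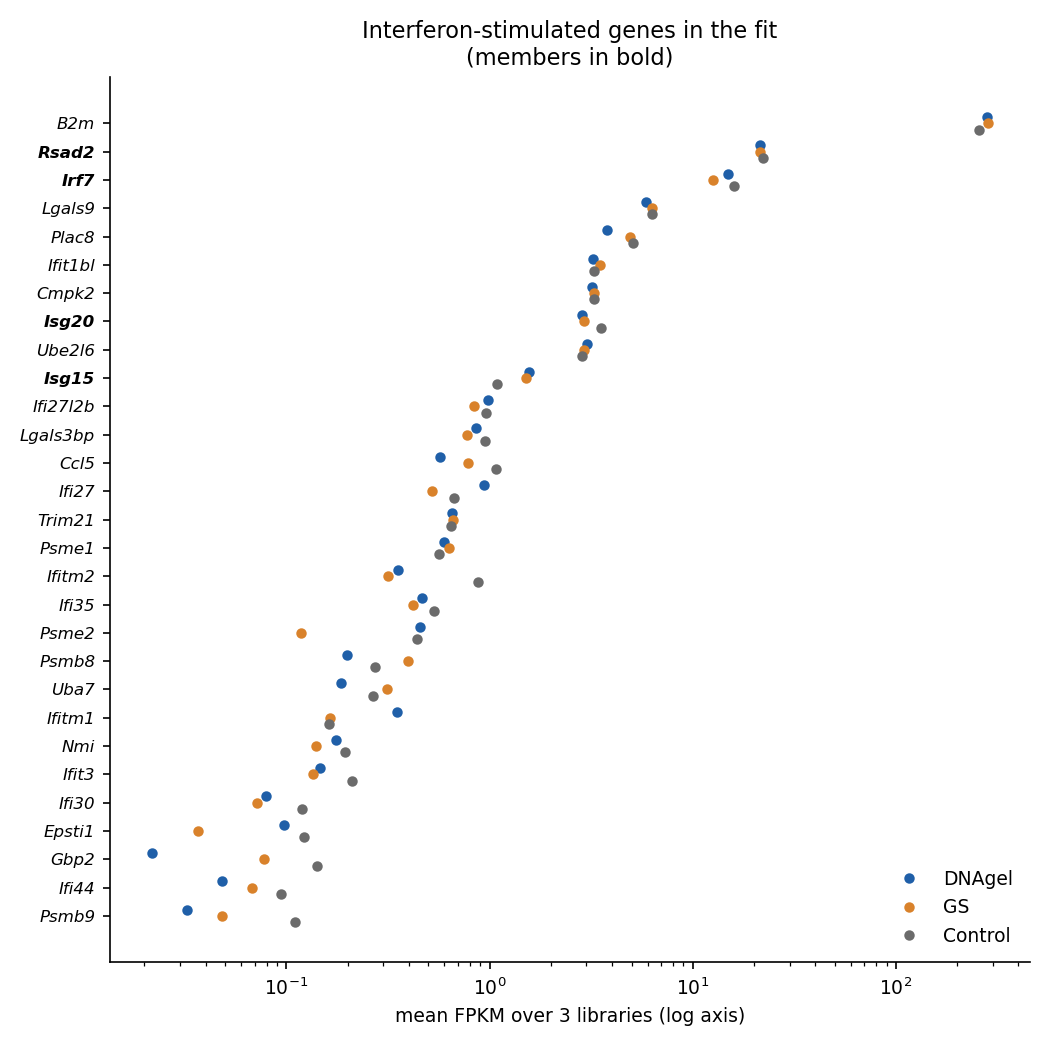
Mean FPKM of the 4 members (bold) and the 25 other interferon-stimulated genes in the fit, on a log axis, with 1 point for each of the DNAgel, GS and Control groups (n = 3 libraries each). Rsad2 and Irf7 lie below B2m alone, and the spread between the groups widens among the low genes.

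By level, Rsad2 and Irf7 stood apart from most of these targets. Of the 58 in the table, B2m, the light chain of MHC class I, was the 1 gene with a mean FPKM of at least 10, and it averaged 280 FPKM with DNAgel, 284 FPKM with GS and 257 FPKM in the Control. Another 5 genes, Lgals9, Plac8, Ifit1bl, Cmpk2 and Ube2l6, had a mean FPKM of 1 to 10, and 14 had 0.1 to 1. The other 38 were below 0.1, the range of Mx1, Irf1 and Ifitm3. In CPM, B2m had 580, 549 and 596 in the DNAgel libraries. It had 718, 639 and 527 CPM in the GS libraries and 518, 451 and 536 CPM in the Control libraries. All 3 DNAgel libraries were thus above all 3 Control libraries, while the GS libraries overlapped both. Among the 25 in the fit, 1 separated with DNAgel higher than Control and 2 with DNAgel lower. Over all genes tested, 10.2% separated in either direction. Ifit1bl, of the family of proteins that bind foreign RNA, had 13.7, 8.93 and 12.6 CPM in the DNAgel libraries, 14.2, 12.0 and 14.4 CPM in the GS libraries and 10.4, 12.0 and 10.9 CPM in the Control libraries. All 3 GS libraries were above all 3 Control libraries, narrowly for GS replicate 2 and Control replicate 2, while the DNAgel libraries overlapped both. Usp18, which removes Isg15 from proteins, had 0 counts in all DNAgel libraries, 7, 19 and 14 in the GS libraries and 5, 0 and 0 in the Control libraries. It was below the filter and was chosen here after its values were seen.

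The signalling genes above the members were low. Ifnar1, a chain of the receptor for type I interferon, had 28, 46 and 48 counts in the DNAgel libraries, 35, 50 and 15 in the GS libraries and 19, 37 and 59 in the Control libraries. The log2 fold change, DNAgel against GS, was 0.23 (edgeR adjusted p = 0.949). The partner chain Ifnar2 summed to 38 counts with DNAgel, 65 with GS and 39 in the Control. For the receptor of interferon-gamma, Ifngr1 had 4, 8 and 3 counts in these groups, and Ifngr2 had 8, 4 and 16. The 13 interferon genes listed as ligands were not analysed here. Of the other members of the regulatory factor family in the list, Irf2 alone was in the fit beside Irf7, with a log2 fold change of −0.78 for DNAgel against GS (edgeR adjusted p = 0.802).

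Of 19 genes of interferon receptors and the JAK-STAT pathway, 15 were in the table and 3 in the fit. For DNAgel against GS 1 of the 3 was called as higher, where 0.814% of all genes were called. The 1 gene was Socs3, an inhibitor of JAK kinases that many cytokines induce. It had 35, 33 and 44 counts in the DNAgel libraries, 8, 6 and 8 in the GS libraries and 38, 49 and 66 in the Control libraries. The GS libraries were thus below all others, and the DNAgel and Control libraries overlapped. Its log2 fold change was 2.24 for DNAgel against GS (standard error 0.43, edgeR adjusted p = 0.0235), −0.29 for DNAgel against Control (edgeR adjusted p = 0.994) and −2.53 for GS against Control (edgeR adjusted p = 0.0189). The call against GS was lost when any library other than Control replicate 1 was left out (edgeR adjusted p up to 0.0987), and with the replicate block (edgeR adjusted p = 0.0706). For GS against Control it was lost without GS replicate 1 or any of the 3 Control libraries (edgeR adjusted p up to 0.0978), and with the replicate block (edgeR adjusted p = 0.0558). Jak1, a kinase bound to the interferon receptors, had 60, 44 and 52 counts in the DNAgel libraries, 27, 22 and 17 in the GS libraries and 44, 61 and 84 in the Control libraries. The log2 fold change, DNAgel against GS, was 1.16, which did not pass the threshold (edgeR adjusted p = 0.229).

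Sensors of nucleic acid, the step at which foreign DNA would be read, gave no calls by edgeR. Of 33 listed genes, 21 were in the table and 6 in the fit, and 0 of 6 passed in any comparison by edgeR, with 1 of 6 at an unadjusted p under 0.05 for DNAgel against GS, 0 for DNAgel against Control and 1 for GS against Control. Over all genes the shares at this unadjusted edgeR p were 9.44%, 3.79% and 8.85%. Both times the 1 sensing gene was Unc93b1, which carries Toll-like receptors to endosomes. It had 43, 52 and 67 counts in the DNAgel libraries, 0, 12 and 15 in the GS libraries and 53, 31 and 53 in the Control libraries, and the log2 fold change, DNAgel against GS, was 2.49 (edgeR adjusted p = 0.159, DESeq2 adjusted p = 0.0318). Ddx41 had 2.07 (edgeR adjusted p = 0.757), Mavs, the adaptor of RNA sensors, 0.48 (edgeR adjusted p = 0.870) and Rnaseh2b −1.13 (edgeR adjusted p = 0.903). Cgas, the cytosolic sensor of DNA, had 4 counts with DNAgel and 0 with GS or in the Control, which is below the limit of 12.

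Calls between the 2 materials were made among the immediate-early genes, which cells transcribe without new protein within minutes of a stimulus. Of 25 immediate-early genes in the table, 16 were in the fit, and 6 of them, Socs3 included, were higher with DNAgel than with GS, while 0 of 16 were called for DNAgel against Control and 4 were lower for GS against Control. Over all 3561 genes the shares called in either direction were 0.814%, 0% and 0.646% in these comparisons. The median log2 fold change of these 16 for DNAgel against GS was 1.85, with Atf3 and Myc, which had 0 counts in the GS group, set at their lower bounds. Of the early NF-kappaB targets 3 were in the fit and 0 were called by edgeR in any comparison, with Nfkbiz at 2.10 (edgeR adjusted p = 0.435), Nfkbia at 1.05 (edgeR adjusted p = 0.449) and Il1b at 0.84 (edgeR adjusted p = 0.671) for DNAgel against GS. At an unadjusted edgeR p under 0.05 the NF-kappaB targets were 2 of 3 for DNAgel against GS, 0 for DNAgel against Control and 2 for GS against Control. Over all genes these shares were 9.44%, 3.79% and 8.85%. For all 3 targets the DNAgel libraries were above the GS libraries, where 14.7% of all genes separated in either direction. Nfkbiz, Socs3, Atf3 and Myc passed the filter only through DNAgel or Control libraries, as did Jak1, Unc93b1 and Ddx41. A low GS level was thus partly set by the filter for these genes. The lists were also chosen with earlier results of these data known, so the shares are descriptions only. The members and the immediate-early genes are shown side by side in the plot of fold changes by list.

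**Figure D4:**
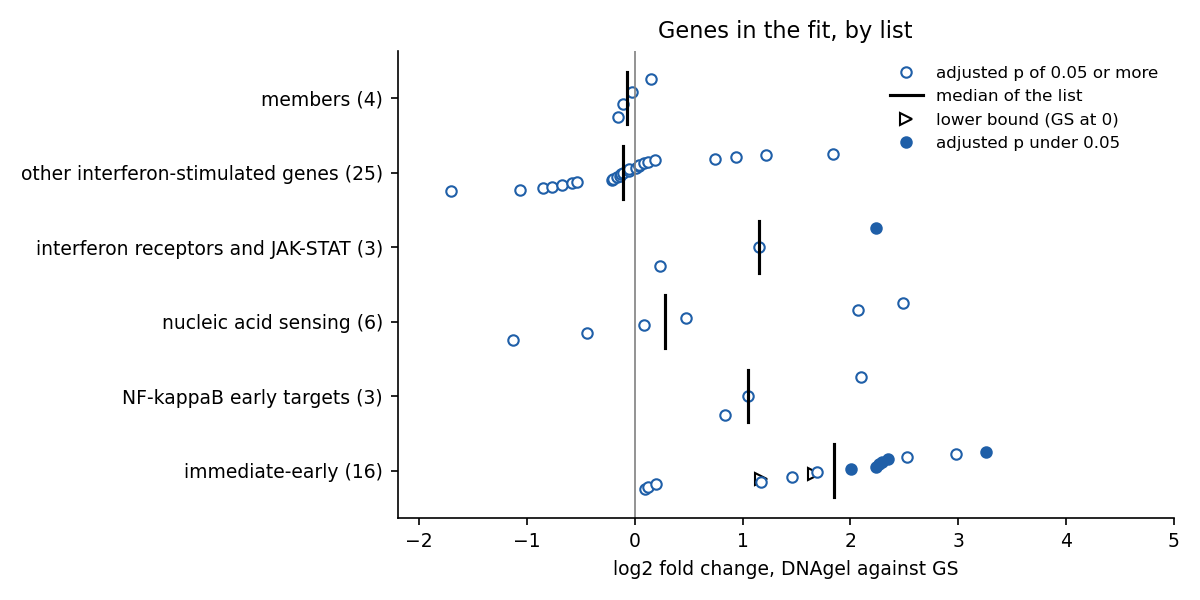
Log2 fold changes for DNAgel against GS of the genes in the fit, by list, with the number of genes in brackets. Filled points passed an adjusted p of 0.05 in edgeR, open points did not, triangles are lower bounds for genes at 0 in GS (Atf3 and Myc), and black lines are medians, which were −0.07 for the members and 1.85 for the immediate-early genes.

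The makeup of the blood was read from markers. The summed level of 13 monocyte markers was 21.5 to 28.6 CPM in the DNAgel libraries, 14.1 to 17.8 CPM in the GS libraries and 20.7 to 27.7 CPM in the Control libraries, and 12, 12 and 11 of the 13 had counts in these groups. The GS libraries were thus below both other groups, as they were for Socs3. Much of the sum was Apoe, an apolipoprotein of macrophages and other cells, which had 11.5, 10.6 and 9.56 CPM in the DNAgel libraries, 0.829, 2.54 and 3.27 CPM in the GS libraries and 9.79, 9.54 and 8.84 CPM in the Control libraries. Without Apoe, a choice made after the values were seen, the groups overlapped, with 11.9 to 18.0 CPM in the DNAgel libraries, 13.3 to 14.6 CPM in the GS libraries and 10.9 to 18.8 CPM in the Control libraries. Apoe was called by edgeR as higher with DNAgel than with GS, and 3 of the 9 monocyte markers in the fit had log2 fold changes below 0 for that comparison. A sum does not show each marker, and 4 of the 9 separated with DNAgel above GS and 1 with DNAgel below. Over all genes 14.7% separated in either direction. Csf1r had 59, 43 and 48 counts with DNAgel, 0, 0 and 24 with GS and 43, 57 and 64 in the Control. Fcgr1a had 14, 11 and 11, then 0, 4 and 0, and 0, 15 and 26 counts in these groups. Both passed the filter only through DNAgel or Control libraries, and neither was called by edgeR for DNAgel against GS. The part of these markers in the results above was not tested. The summed level of the 7 members was 96.7 to 98.4 CPM in the DNAgel libraries, 96.9 to 105 CPM in the GS libraries and 96.7 to 102 CPM in the Control libraries. The 13 neutrophil markers had 12.3 to 14.4 CPM in the DNAgel libraries, 9.72 to 12.7 CPM in the GS libraries and 8.60 to 12.8 CPM in the Control libraries. Plasmacytoid dendritic cells, the blood cells with the highest known output of type I interferon, were near the limit of these libraries, and the 9 of their listed markers that are in the table summed to 0.783 to 0.860 CPM in the DNAgel libraries, 0.355 to 0.880 CPM in the GS libraries and 0.414 to 0.519 CPM in the Control libraries. By these sums all DNAgel libraries were above all Control libraries, and the GS libraries overlapped both. Il3ra, the 1 of these markers in the fit, had 24, 12 and 31 counts in the DNAgel libraries. It had 13, 6 and 13 in the GS libraries and 0, 0 and 10 in the Control libraries. Its mean was 0.351 CPM with DNAgel and 0.0445 CPM in the Control, a large part of the difference between the sums. For DNAgel against Control its groups did not overlap, as for 10.2% of all genes. Its unadjusted edgeR p was under 0.05, as for 3.79% of all genes (edgeR adjusted p = 0.994). Tlr7, a listed marker below the filter, went the other way for DNAgel against Control. It had 15, 6 and 13 counts in the DNAgel libraries and 22, 22 and 21 in the Control libraries. The GS libraries had 0, 6 and 0 counts of Tlr7. The defining marker Siglech was below the limit of 12 counts in each group, with 0 counts with DNAgel, 7 with GS and 4 in the Control.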

How the data were processed

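The RNA was sequenced as poly(A) libraries with molecular identifiers, and the authors deposited 1 table for all of them. Its estimated counts, as the authors deposited them, are unscaled whole numbers. Its FPKM values had been divided by the authors by transcript length and by library total. The submitters' processing notes list HISAT2 2.0.4 and StringTie 1.3.4d, along with cutadapt 1.9, UMI-tools, edgeR and DESeq2, with no order or settings, and the mouse build mm9, although the identifiers are rat. The coordinates of the table therefore carry no build here.

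Counts were tested with edgeR 4.0.16 under R 4.3.3 (TMM, robust quasi-likelihood, a joint fit of 9 libraries without a block), for genes that exceeded 0.1 FPKM in 3 or more libraries. The Benjamini-Hochberg threshold was 0.05. The scripts were tested on simulated data. The members, lists, tests and naming rule were chosen with earlier results of these data known. The text names the members, up to 4 genes of a list by statistic for DNAgel against GS, the 3 genes most like each member by Pearson correlation, and genes of interferons and their receptors. Cmpk2, Ifit1bl, B2m, Lgals9, Ube2l6, Usp18, Cgas, Tlr7, Atf3, Myc, Siglech, Aen and Agrn were chosen after their values were seen. The result of 1 monocyte marker is not reported here. No source pairs libraries by number, but deviations from group means over 940 genes correlated between same-numbered GS and Control libraries (r = 0.303 to 0.524). With the DNAgel libraries of the same number they did not (r = −0.441 to 0.00328). DNAgel replicate 1 went with GS 3 (r = 0.355) and Control 3 (r = 0.543). DNAgel replicate 2 went with GS 1 (r = 0.459) and Control 1 (r = 0.303), and replicate 3 with GS 2 (r = 0.525) and Control 2 (r = 0.614). The replicate block does not follow this pattern for the DNAgel libraries. Alternatives were DESeq2 1.42.0, limma 3.58.1 on log2(FPKM + 0.1) and log2(FPKM + 1), a fit without the filter, a filter at a mean FPKM of 1, counts divided by 4, library totals alone or without hemoglobin genes, the replicate block, and leaving out each library.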

Additional observations from a re-analysis of the deposited data

How the results depend on the processing

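None of the 4 members in the fit was called in any comparison under any alternative that was run, nor were Mx1, Irf1 and Ifitm3 in the fits with no filter, the 1 setting that held them (DESeq2 gave Ifitm3 no adjusted p in 2 comparisons). The lowest edgeR, DESeq2 or limma adjusted p of a member in the fit was 0.441. Of 220 alternative values of the members' log2 fold changes, 198 kept their direction and 22 turned it, all of them near 0 and uncalled. For DNAgel against GS, Isg15 (−0.03) became 0.012 with a mean FPKM of at least 1, 0.000446 with counts divided by 4, 0.059 with library totals alone, and 0.042 and 0.028 with limma at pseudocounts of 0.1 and 1. For DNAgel against Control, Rsad2 (0.01) became −0.0056 with a mean FPKM of at least 1, −0.058 with library totals alone, and −0.059 and −0.056 with limma at these pseudocounts. For GS against Control, Rsad2 (0.12) became −0.054 with library totals alone, and −0.053 and −0.051 with limma. Library totals alone moved the median of all genes to 0.15 for DNAgel against GS, −0.09 for DNAgel against Control and −0.23 for GS against Control. Leaving out each library in turn gave −0.21 to 0.14 for Isg15, −0.19 to 0.000979 for Rsad2 and −0.33 to 0.018 for Isg20 in DNAgel against GS, −0.10 to 0.063 for Irf7 and −0.066 to 0.069 for Rsad2 in DNAgel against Control, and −0.26 to 0.090 for Isg20 in GS against Control.

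Counts over all genes moved more. For DNAgel against GS, the 29 calls became 63 with DESeq2, 50 with no filter, 10 with a mean FPKM of at least 1, 16 with limma at a pseudocount of 1 and 14 with the replicate block, and 8 to 28 without 1 library (8 without DNAgel replicate 1 or 2, 10 without GS replicate 1). For DNAgel against Control, 0 calls became 5 with DESeq2, 1 with no filter and 2 with a mean FPKM of at least 1, and stayed at 0 without each library. For GS against Control, the 23 calls became 53 with DESeq2, 46 with no filter, 11 with a mean FPKM of at least 1, 11 with limma at a pseudocount of 1, 9 with the replicate block and 0 with the block on the GS and Control libraries alone, an alternative chosen after the data were seen. Leaving out 1 library gave 4 to 24 (5 without GS replicate 1, 4 without Control replicate 1 or 2, 8 without Control replicate 3). Socs3 kept its call in 5 of 17 alternatives for DNAgel against GS (adjusted p 0.00314 to 0.224) and in 11 of 18 for GS against Control (adjusted p 0.000394 to 0.322), with 1 direction throughout. Of the 16 immediate-early genes, DESeq2 called 10 for DNAgel against GS and 8 for GS against Control, where edgeR called 6 and 4, and of 6 nucleic acid sensing genes it called 1 for DNAgel against GS, where edgeR called 0. The block changed no call of a member, and the cause of these shifts was not tested. Mx1, Irf1 and Ifitm3 had too few counts for a difference to be detectable at this depth, and 15 min of contact is the 1 time sampled.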
